A study of Mus musculus with 8 samples.

Results

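Nucleoporins are the proteins of the nuclear pore complex, the channel through which proteins and RNA pass between nucleus and cytoplasm. The pore is built of modules: a Y-shaped scaffold complex on both faces, an inner ring, a central channel of proteins with phenylalanine-glycine repeats, cytoplasmic filaments, a nuclear basket and a ring of membrane proteins. CTCF is a zinc finger protein that binds a long DNA motif, is known for its role at insulators and at the anchors of chromatin loops, and also occupies many promoters. Ash2l belongs to the core of the KMT2 enzymes, the methyltransferases of histone H3 lysine 4. The comparison asks how CTCF binding changes when Ash2l is lost, here at the start sites of 30 nucleoporin genes.

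The cells were immortalised mouse embryonic fibroblasts (iMEF) that carry floxed Ash2l alleles and a Cre recombinase fused to the oestrogen receptor. They were grown for 7 days with ethanol as vehicle (-HOT) or with 5 nM 4-hydroxytamoxifen (+HOT), which activates the recombinase so that an exon of Ash2l is deleted. Both groups therefore carried the floxed alleles and the recombinase, all libraries came from 1 cell line, and no treated line without the recombinase is among the samples. By the study's methods the 2 libraries of a group are technical replicates, so that SD and p-values cover the spread between libraries and not between cultures. The vehicle cells were also passaged once more than the +HOT cells, so that passage and treatment cannot be told apart. CTCF was measured by chromatin immunoprecipitation and sequencing (ChIP-seq) in 4 libraries. The tables hold raw read counts at 104008 CTCF sites with mm9 coordinates. The 2 -HOT libraries, named R1 and R3 after their columns, hold 4221752 and 3126722 reads in these sites. Deeper libraries, with 9280701 and 7653295 reads, were obtained with HOT. Counts were scaled with TMM factors to the mean library size, and the resulting values are called normalised reads. RNA was not measured in these samples, so the loss of Ash2l was not checked here.

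A site was taken as a nucleoporin gene site when its centre lay within 3000 bp of an annotated transcript start (GENCODE vM1) of 1 of the 30 genes. This gave 52 of the 104008 sites. They lie at 23 of the 30 genes, and no site fell in the window at Nup37, Seh1l, Sec13, Nup93, Nup155, Nup35 or Nup54. 51 of the 52 sites had enough reads to be tested. The exception was a weak site inside Nup214. The word promoter holds only in part for this set: 31 sites lie near the start of a protein-coding transcript, while 21 count only through the start of another transcript class, mostly inside the long genes Nup214, Nup88 and Nup210. By the position of the centre, 32 sites were intronic, 11 intergenic, 3 in coding exons, 4 in UTRs and 2 in exons of non-coding transcripts. The family was chosen because the site at Nup62 had shown a strong loss. The values of that site are therefore a description without a test, and the main counts over the family are given with and without it.

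The Nup62 site (chr7:52073449-52073903, 455 bp) lies inside the gene. Nup62 encodes the main phenylalanine-glycine nucleoporin of the central channel. The centre of the site is 2218 bp downstream of the start of the main transcripts (position 52071458, plus strand), in the first intron, and at -131 bp from the start of an alternative protein-coding transcript. The same interval is intronic in Il4i1, and Atf5, a transcription factor gene, starts nearby in the other direction. The 300 bases that end just before the alternative exon are shown, with the best CTCF match in capitals, because this is the site with the greatest loss of the family (chr7:52073507-52073806, plus strand, NCBIM37).
Nup62: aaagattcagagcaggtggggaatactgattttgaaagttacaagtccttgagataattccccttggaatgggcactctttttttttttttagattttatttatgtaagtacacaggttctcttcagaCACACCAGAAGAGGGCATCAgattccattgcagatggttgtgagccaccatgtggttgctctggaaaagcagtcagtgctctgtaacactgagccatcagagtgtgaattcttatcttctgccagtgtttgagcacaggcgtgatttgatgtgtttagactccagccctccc
A primer pair that the study used for ChIP-qPCR at a lost site of chromosome 7 matches this site, with an amplicon of 99 bp (chr7:52073489-52073587) that ends 48 bp before the capitals. The paper reports that the changes of its ChIP-seq were reproducible in independent ChIP-qPCR at the loci measured, lost sites among them.

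At the Nup62 site, 213 and 195 normalised reads were found in the -HOT libraries R1 and R3, from 145 and 98 raw reads. In the +HOT libraries R1 and R3, 55.4 and 53.0 normalised reads were found, from 85 and 68 raw reads. Both +HOT libraries lay far below both -HOT libraries, and within each group the libraries were close. The mean fell from 204 ± 12.9 to 54.2 ± 1.64 (SD, n = 2 libraries each), a 3.78-fold lower level, with a log2 fold change of -1.92 (SE 0.16). Across the scalings, filters and left-out libraries that were tried the log2 fold change ranged from -1.98 to -1.85.

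The neighbouring sites did not share the size of this loss. At 3669 bp from its centre, a site had 47.1 and 49.8 normalised reads without and 63.8 and 67.1 with HOT, so that both +HOT libraries were the higher ones (log2 fold change 0.44, SE 0.23). At 5292 bp, the values were 41.2 and 49.8 without and 38.4 and 33.5 with HOT (log2 fold change -0.31, SE 0.27). At 6875 bp, a site with a -HOT level like that of Nup62 had 181 and 223 normalised reads without and 158 and 168 with HOT (log2 fold change -0.29, SE 0.12). None of these 3 sites, all in introns shared by Nup62 and Il4i1, passed the test over all sites (adjusted p of 0.183, 0.472 and 0.085, edgeR). The next site upstream, at -36629 bp, had 11.8 and 25.9 normalised reads without and 25.4 and 19.5 with HOT, and its groups overlap.

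**Figure D1:**
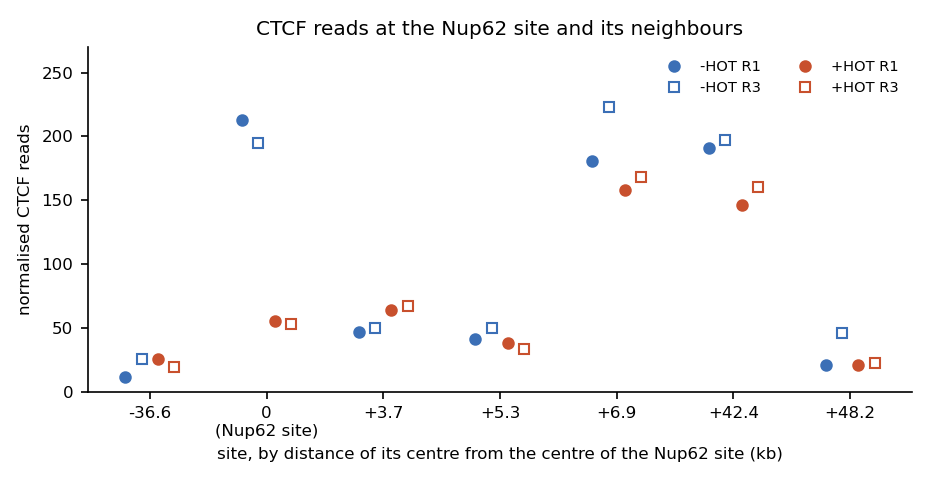
Normalised CTCF reads (vertical axis, from 0) of the 4 libraries at the Nup62 site and the 6 sites within 50 kb of it, in order of their distance from its centre in kb (positions not to scale). Blue points are the -HOT and orange points the +HOT libraries, filled for R1 and open for R3; the Nup62 site falls from about 200 to about 54 reads, while the site at +6.9 kb stays between 158 and 223.

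The 20 bases in capitals are no rare form of the motif. They were the best CTCF match of 6699 sites, 6.44% of the table, and thus the most frequent 20-base word among best matches; the next word was that of 1790 sites. B2 elements, a class of short interspersed repeats of rodents, are known to carry a CTCF motif, but no repeat annotation was used here and membership of this word in a repeat class was not tested. How reads that map to several places were handled is not given in the sources used here. Among the 6317 tested sites with this word, the median log2 fold change was -0.07 (quartiles -0.36 and 0.23). Of these, 61 (0.966%) were lost and 50 (0.792%) gained, against 1.50% and 3.90% over all tested sites. The Nup62 site had the lowest value of the 6317, followed by -1.84. It was also far stronger than most of them: the median site with the word had 19.1 mean normalised reads against 129 at Nup62. Of the 44 tested sites with the word that were as strong as the Nup62 site or stronger (itself included), 43 had a log2 fold change between -0.99 and 0.83. Since the Nup62 site was chosen for its loss, its place in these ranks is a description.

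**Figure D2:**
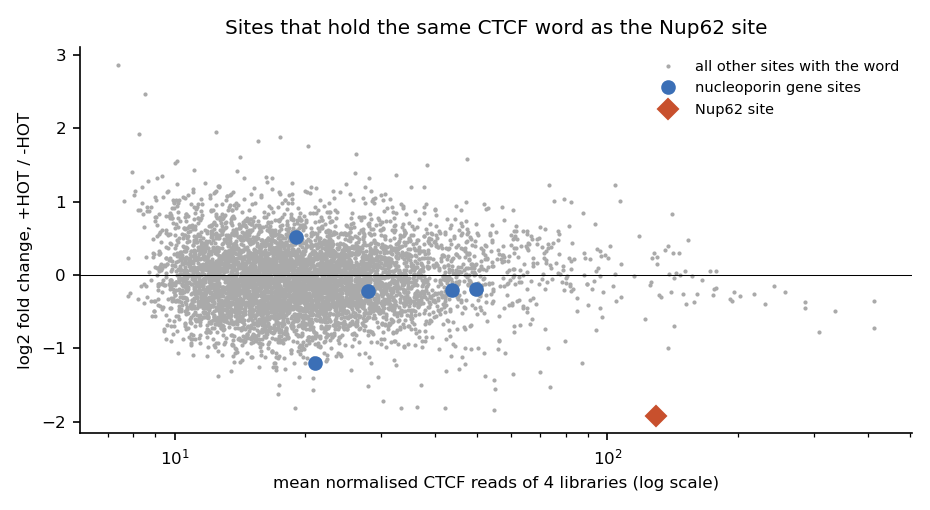
Log2 fold change of CTCF reads (+HOT over -HOT, vertical axis) against mean normalised reads of the 4 libraries (log scale) for the 6317 tested sites whose best match is the 20-base word of the Nup62 site. Grey points are sites elsewhere, blue points the 5 other nucleoporin gene sites with the word and the orange diamond the Nup62 site, which lies at -1.92 with 129 reads, below all other points.

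The same held among promoter sites, taken as all sites within 3000 bp of the start of a protein-coding, long intergenic non-coding or processed transcript. Nucleoporin gene sites were placed by starts of every transcript class. A few of them, such as the Nup43 sites, are therefore not promoter sites by this rule. Comparisons of the family with promoter sites thus set slightly unlike definitions side by side. Of the 17078 tested promoter sites, 3429 were at least as strong as the Nup62 site. Their lowest log2 fold change after that of Nup62 was -1.43. Among promoter sites of any strength, 67 had a value as low as -1.92 or lower, with Nup62 included. Here too the place of the Nup62 site is only a description, since it was chosen for its loss.

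A site was called lost or gained in edgeR's quasi-likelihood test at an adjusted p below 0.05 and a log2 fold change beyond 1 in size. Of the 51 tested nucleoporin gene sites, 6 (11.8%) were lost and 0 gained, and without Nup62 5 of 50 (10.0%) were lost. Over all 99560 tested sites 1.50% were lost and 3.90% gained, and over the tested promoter sites 6.01% were lost and 1.29% gained. At an unadjusted p below 0.05 (edgeR), 23 of the 51 sites passed, Nup62 included, and 3 of the 23 were higher with HOT. The share of all sites at this threshold is not given here, so nothing is read from these counts. The count of lost sites depends on the fit: DESeq2 called 1 lost and 0 gained of the 28 sites to which it gave an adjusted p, and with a mean of at least 20 counts 3 of 38 were lost. As Nup62 chose the family, nothing is read from the difference between these shares. Without the fold threshold, 13 of the 51 sites were lower and 1 higher at an adjusted p below 0.05 (edgeR). That is 25.5% lower, or 24.0% (12 of 50) without Nup62, against 24.0% lower and 3.53% higher over the promoter sites, and against 9.08% lower and 9.45% higher over all sites. The median log2 fold change of the 51 sites was -0.26 (quartiles -0.59 and 0.09), and -0.24 without Nup62. It was -0.28 (quartiles -0.54 and 0.05) over the promoter sites and 0.01 over all sites. In median and quartiles the family thus lay close to the promoter sites as a whole.

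**Figure D3:**
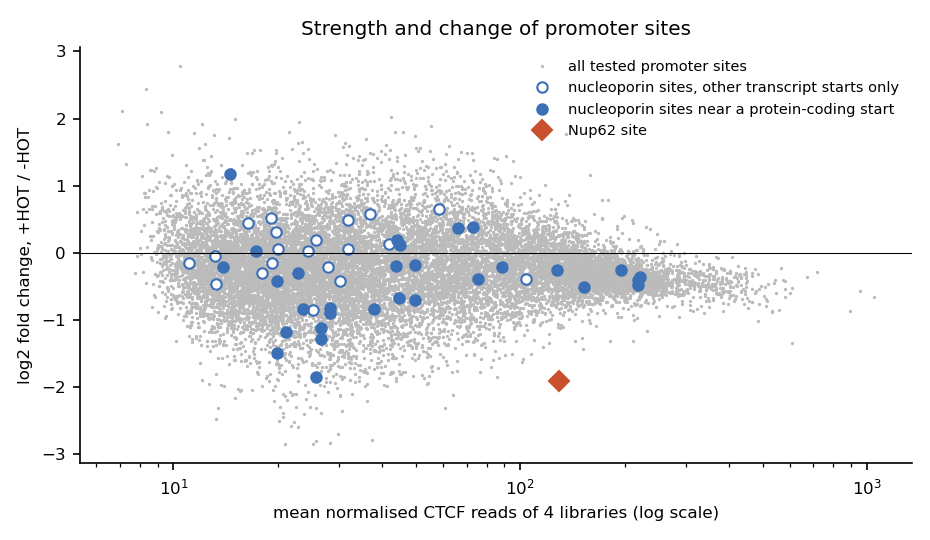
Log2 fold change of CTCF reads (+HOT over -HOT, vertical axis) against mean normalised reads of the 4 libraries (log scale) for the 17078 tested promoter sites (grey) and the 51 tested nucleoporin gene sites. Filled blue points lie within 3000 bp of a protein-coding start and open points only near other transcript starts; the orange diamond is the Nup62 site, with 129 reads and a log2 fold change of -1.92.

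The values differed by the class of start. All 6 lost sites were among the 31 near a protein-coding start, where the median log2 fold change was -0.41 and 25 values were below 0. Without Nup62 5 of 30 were lost and the median was also -0.41. At the 20 tested sites near other starts only, values ran from -0.86 to 0.65 with a median of 0.04, and 9 were below 0. Over all promoter sites the medians were -0.31 near a protein-coding start and -0.10 near other starts only, with 6.79% and 1.28% lost. Their other starts do not cover every transcript class that placed the nucleoporin gene sites, so that this second class is not the same. These classes were not tested against each other. At the 15 sites within 1000 bp of a protein-coding start every value was below 0, with a median of -0.51 and 5 lost. Without Nup62 the median was -0.46, with 4 of 14 lost. Over the 7416 tested promoter sites in the same window 83.4% of the values were below 0, the median was -0.42 and 8.97% were lost.

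The other member of the central channel with a site was Nupl1, which encodes the partner of Nup62 also known as Nup58. The Nupl1 site (chr14:60870894-60871128, intergenic, at -667 bp) had 35.3 and 45.8 normalised reads without HOT and 12.4 and 9.36 with HOT. Both +HOT libraries were lower than both -HOT libraries by more than the spread within either group. The level was 3.61-fold lower with HOT (log2 fold change -1.85, SE 0.36, adjusted p = 9.65e-05, edgeR). The call stood in each of the 9 alternative fits that gave the site an adjusted p. The third gene of this module, Nup54, had no site in the window. The central channel therefore was represented by 2 sites, both lost, 1 of which chose the family.

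In the Y complex, the largest scaffold module, 6 of 9 genes had a site. Of the 11 sites 2 passed the test, both lower, and 9 of the 11 values were below 0 (median -0.39). As background for the modules, 24.0% of the tested promoter sites were lower at an adjusted p below 0.05 (edgeR). Of all tested promoter sites 6.01% were lost. The Nup85 site (chr11:115424689-115424976, intergenic, at -916 bp) had 36.8 and 39.8 normalised reads without and 22.1 and 7.80 with HOT. The +HOT libraries were both lower but differed from each other, the lowest resting on 10 raw reads. It was called lost (log2 fold change -1.29, SE 0.35, adjusted p = 0.0057, edgeR), and the call ended without +HOT R3 (-0.78, adjusted p = 0.112, edgeR). Nup133 carries the strongest site of the module (chr8:126473811-126474464, in an intron of the overlapping gene Gm20388, at -972 bp). It had 193 and 165 normalised reads without and 129 and 124 with HOT, with no overlap (log2 fold change -0.51, SE 0.13, adjusted p = 0.00342, edgeR). Its adjusted p rose to 0.19 without -HOT R1 and to 0.055 with scaling along site strength. A second Nup85 site, at -195 bp from an internal start, had 14.7 and 1.99 normalised reads without and 20.8 and 21.1 with HOT, the highest log2 fold change of the family (1.17), and did not pass the test (adjusted p = 0.074, edgeR). Its lower -HOT value, in R3, rests on 1 raw read, and without -HOT R1 the site was called gained. The 2 sites around the start of Nup160, another scaffold gene, had values of opposite sign, 0.38 at -2461 bp and -0.40 at 1213 bp, neither of which passed.

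In the inner ring, the scaffold around the channel, 2 of 5 genes had a site, and 1 of 4 sites was lost. This was the Nup188 site (chr2:30142573-30142846, at 760 bp, in an intron of Nup188 and of the neighbour Phyhd1). It had 33.8 and 39.8 normalised reads without and 18.9 and 14 with HOT, and the groups did not overlap. The level was 2.18-fold lower (log2 fold change -1.13, SE 0.33, adjusted p = 0.0116, edgeR). The call ended without -HOT R1 (adjusted p = 0.0554, edgeR), without -HOT R3 (0.0973) or without +HOT R3 (0.058). The other 3 sites of the module, 2 at the far end of Nup188 and 1 at Nup205, had values between -0.31 and 0.52.

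On the cytoplasmic side all 6 genes had a site, 20 in total, of which 2 were lost, 1 more was lower and 1 was higher. Ranbp2 encodes the filament protein also known as Nup358, and had 2 sites in its first part. The site at 2433 bp (chr10:57911916-57912151, intronic) had 32.4 and 25.9 normalised reads without and 9.12 and 17.2 with HOT. It was called lost (log2 fold change -1.19, SE 0.38, adjusted p = 0.0196, edgeR), and the call ended without -HOT R1 (adjusted p = 0.286, edgeR) or +HOT R1 (0.185). The site at 297 bp (chr10:57909635-57910160, intronic) had 61.8 and 61.7 without and 39.1 and 35.9 with HOT, a tight pair in each group. It was lower with HOT (log2 fold change -0.71, SE 0.24, adjusted p = 0.0271, edgeR). That p rose to 0.18 without -HOT R1, 0.0998 without -HOT R3, 0.0877 without +HOT R3 and 0.126 in DESeq2.

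Nup88 encodes an anchor of the cytoplasmic filaments and shares its start region with Rpain, on whose intron both of its upstream sites fall. The lost one (chr11:70784199-70784396, at -822 bp) had 17.7 and 41.8 normalised reads without and 7.81 and 12.5 with HOT. These are few reads, 12 and 21 raw without and 12 and 16 with HOT, and the -HOT libraries differed more from each other than at any other lost site of the family. The log2 fold change was -1.49 (SE 0.42, adjusted p = 0.00781, edgeR). The call ended without -HOT R3 (-0.82, adjusted p = 0.51, edgeR) or +HOT R1 (-1.16, adjusted p = 0.0588, edgeR). The other upstream site of Nup88, at -1409 bp, had 38.2 and 33.8 without and 20.8 and 20.3 with HOT (-0.82, SE 0.32) and did not pass (adjusted p = 0.0621, edgeR).

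Rae1, which encodes an mRNA export factor that binds Nup98, carries the strongest site of this module (chr2:172824984-172825619, intergenic, at -317 bp). It had 240 and 183 normalised reads without and 190 and 168 with HOT, and the groups overlap (log2 fold change -0.26, SE 0.12, adjusted p = 0.123, edgeR). The only nucleoporin gene site that was higher at an adjusted p below 0.05 lies in Nup214, named here after its value was seen. Nup214 is the partner of Nup88 and carries 8 of the sites, all near starts of non-coding transcripts. The site at 682 bp from such a start had 39.7 and 51.8 normalised reads without and 69.7 and 71.7 with HOT (log2 fold change 0.65, SE 0.23, adjusted p = 0.0344, edgeR). The other 6 tested Nup214 sites had values between -0.47 and 0.44, and none passed.

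In the nuclear basket all 5 sites had values below 0 (from -0.86 to -0.37), 3 of them at an adjusted p below 0.05. Over the tested promoter sites 24.0% were lower at this threshold. Values below 0 made up 73.8% of promoter sites near a protein-coding start and 59.1% of those near other starts only. The module was not tested against them. Tpr encodes the long coiled-coil backbone of the basket. Its site at 215 bp (chr1:152239850-152240516), which lies in a UTR of the divergent gene BC003331, was the strongest of the family, with 227 and 279 normalised reads without and 195 and 189 with HOT (log2 fold change -0.37, SE 0.11, adjusted p = 0.0114, edgeR). The Nup50 site (chr15:84755303-84756472, intronic, at 2008 bp), at the gene of an import cofactor, had 249 and 263 without and 182 in both libraries with HOT (-0.49, SE 0.11, adjusted p = 0.000744, edgeR). At Nup153, a basket protein that tethers the others, the site at 816 bp (chr13:46822129-46822676, intronic) had 60.3 and 35.8 without and 30.0 and 25 with HOT (-0.84, SE 0.28, adjusted p = 0.0261, edgeR). The groups did not overlap at any of the 3 sites. The Nup153 site missed the adjusted p without -HOT R1 (-0.38, adjusted p = 0.686, edgeR), and also missed it without +HOT R3 (0.083) and in DESeq2 (0.141). The Tpr site missed it without -HOT R3 (0.26).

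In the membrane ring all 4 genes had a site, 10 in total, with values from -0.90 to 0.58, of which 2 were lower at an adjusted p below 0.05. Aaas, the gene of aladin, carries the strongest (chr15:102180968-102181507, intergenic, at -47 bp), with 244 and 255 normalised reads without and 191 and 182 with HOT (log2 fold change -0.41, SE 0.11, adjusted p = 0.00418, edgeR). The second was a Pom121 site at 1848 bp, named beside its count, with 32.4 and 41.8 without and 20.2 and 18.7 with HOT (-0.90, SE 0.32, adjusted p = 0.0404, edgeR). The stronger Pom121 site at -1373 bp had 129 and 151 without and 118 and 113 with HOT (-0.26, SE 0.15) and did not pass (adjusted p = 0.224, edgeR).

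Over all 51 tested sites of the family the groups did not overlap at 58.8%, or 58% without Nup62, against 64.1% of tested promoter sites and 56.8% of all tested sites. The small changes at the strong sites depend on the scaling. With a scaling fitted along the strength of the sites, the log2 fold change moved to -0.04 at Tpr (adjusted p = 0.882, edgeR), -0.09 at Aaas (0.679) and -0.16 at Nup50 (0.37). The Nup62 value stayed at -1.88 under this scaling. In DESeq2 the adjusted p was 0.0908 at Tpr, 0.0588 at Aaas and 0.052 at Nup133.

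**Figure D4:**
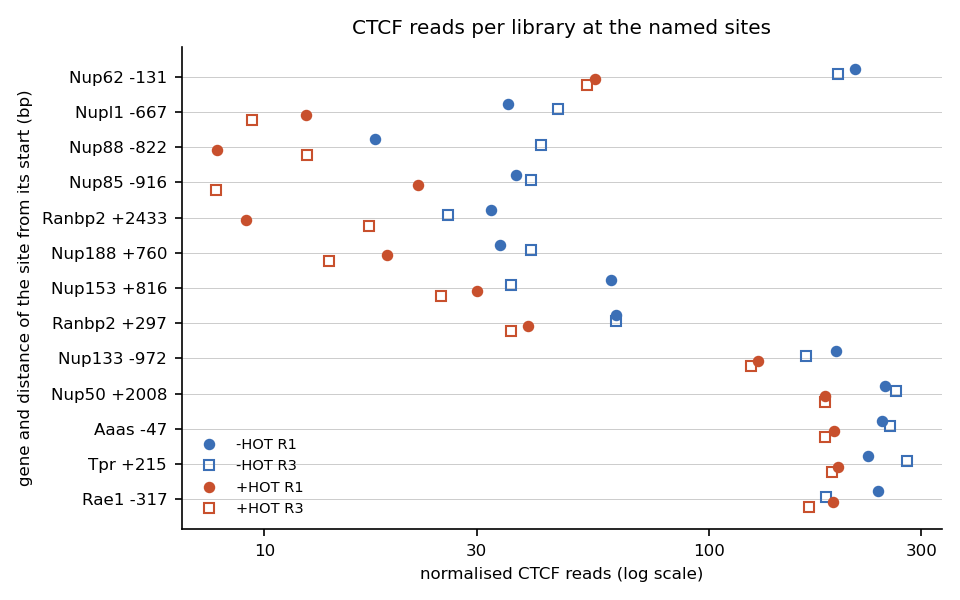
Normalised CTCF reads (log scale, horizontal axis) of the 4 libraries at the 13 sites named by rule, each labelled with its gene and the distance of its centre from the transcript start in bp and ordered by log2 fold change. Blue points are the -HOT and orange points the +HOT libraries, filled for R1 and open for R3; separate groups were part of the rule for most of these sites, and the groups overlap at Rae1.

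**Figure D5:**
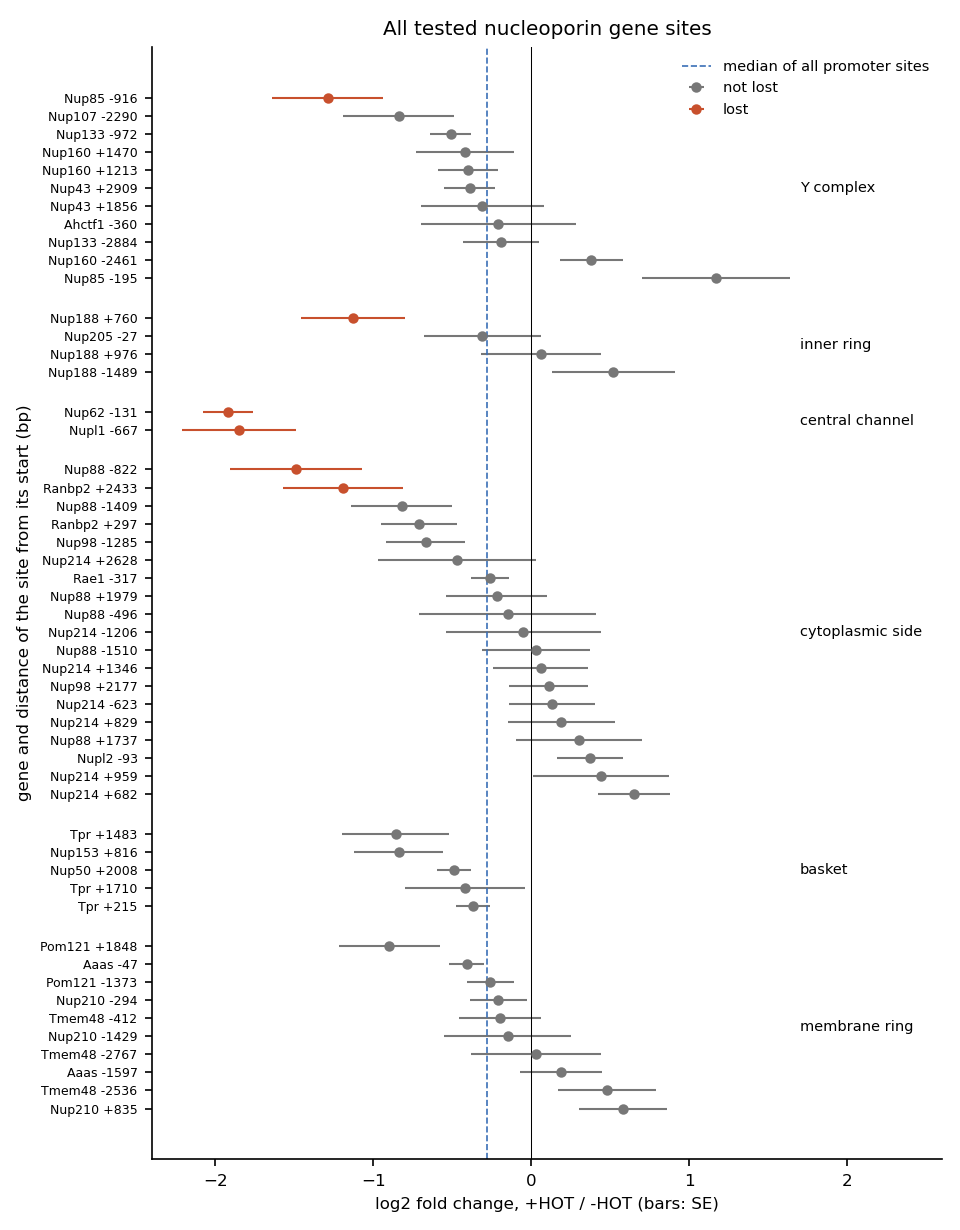
Log2 fold change (+HOT over -HOT, horizontal axis, bars show the SE of the fit) of the 51 tested nucleoporin gene sites, grouped by module of the pore. Orange marks the 6 lost sites, the dashed line the median of all tested promoter sites (-0.28); values run from -1.92 at Nup62 to 1.17 at a Nup85 site.

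The lost sites were compared in sequence, with the window most like the Nup62 word shown for Nupl1, Nup85 and Ranbp2, and the best CTCF match for 2 strong sites with small changes, Nup50 and Aaas. Capitals mark the 20 bases and lower case 5 flanking bases on each side, all 5′ to 3′ on the strand of the match.
Nup62: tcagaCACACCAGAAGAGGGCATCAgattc
Ranbp2: tcaggCACACCAGAAGAGGGCATCAgattc
Nupl1: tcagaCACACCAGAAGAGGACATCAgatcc
Nup85: tcagaCACACCAGAAGAGGTCATCAaatcc
Nup50: ctgtgCAGGACAGTAGAGGGCACTAgatcc
Aaas: gtgacTTGACCTCTAGGCGGCGGCGggggg
These windows lie at chr7:52073630-52073659 (plus strand), chr10:57912002-57912031 (plus), chr14:60871045-60871074 (minus), chr11:115424699-115424728 (minus), chr15:84756214-84756243 (plus) and chr15:102181000-102181029 (plus), read from NCBIM37, the assembly of mm9.

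The Ranbp2 site that was lost holds the identical word. The Nupl1 window differs from it at 1 base (G15A, counted from 1 at the first capital) and the Nup85 window also at 1 base (G15T). The Nup85 site holds a second, higher scoring match elsewhere. The best matches of Nup50 and Aaas differ from the word at 6 and 11 bases. By the window most like the word, the measure used for the lost sites shown, they differ at 6 and 9 bases. Of the 52 sites, 12 hold the word with at most 1 mismatch, and 4 of these were lost. Nup62, whose own sequence gave the word, is a lost carrier by choice, and 3 of 11 were lost without it. The other 8 were not, among them the Nup133 site at -2884 bp (44.1 and 63.7 normalised reads without, 50.8 and 40.6 with HOT) and the Tmem48 site at -412 bp (51.5 and 41.8 without, 45.6 and 35.9 with HOT), which hold the identical word and whose groups overlap. Tmem48 encodes the membrane nucleoporin Ndc1. Among all tested promoter sites 12.4% hold the word with at most 1 mismatch, and 4.21% of those were lost against 6.26% of the rest. At promoters the share lost was thus no higher with the word than without it. These shares were not matched for strength. Promoter sites with the identical word had a median of 20.9 mean normalised reads, against 40.6 over all tested promoter sites. The comparison within the family was made after its values were seen. The lost sites of Nup88 and Nup188 had no match above the matrix threshold. Their windows most like the word differ from it at 9 and 10 bases, about as far as that of Aaas.

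In base composition, described without a test, the family held a smaller share of CpG-rich sites than promoters as a whole. Of the 51 tested sites 7 (13.7%) met the CpG criterion (over 50% GC and an observed to expected CpG ratio over 0.6 in the 500 bp around the centre), against 25.7% of tested promoter sites. A CTCF match was found in 72.5% against 79.7%, and the GC box GGGCGG on either strand, the letters bound by Sp family factors, in 15.7% against 29.1%. All 7 CpG-rich sites were among the 31 near a protein-coding start. Sites near other starts only, which held none, made up 20 of the 51 tested members but 2423 of the 17078 tested promoter sites. The 7 CpG-rich sites all had values below 0 (median -0.41), and 1 of them, at Nup88, was lost. These features were not tested against each other. The sites are also weaker, with a median of 28.3 mean normalised reads against 40.6.

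The edge of the 3000 bp window falls between the Nup43 site at 2909 bp (113 and 123 normalised reads without, 91.2 and 88.1 with HOT) and the Nup85 site at -3034 bp (47.1 and 47.8 without, 41.7 and 46.8 with HOT). A strong loss lies just outside it, in an intron of Nup153 at 3269 bp (chr13:46819796-46820102). It had 55.9 and 81.6 normalised reads without and 15.6 and 17.2 with HOT, a 4.09-fold lower level (log2 fold change -2.03, SE 0.29), and so exceeded the Nup62 site in fold.

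As a share of all reads in sites, the 52 sites took 0.04972% and 0.05002% without HOT and 0.04088% and 0.04005% with HOT. Part of this lies in the promoter sites as a whole: as a share of the reads in promoter sites the values were 0.225% and 0.223% without and 0.217% and 0.213% with HOT. Without the reads of Nup62 the shares of promoter reads were 0.2093% in both libraries without HOT and 0.2118% and 0.2084% with HOT, so that these groups overlap. The lower share of promoter reads thus rests on the site that chose the family. The shares of all site reads without Nup62 were 0.04628% and 0.04689% without and 0.03996% and 0.03916% with HOT.

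The factors that move cargo through the pore form a second list of 34 genes, namely importins, exportins, the Ran cycle and mRNA export factors. Of these, 21 had a site in the same window, 46 in total and 45 tested. Of the 45, 2 (4.44%) were lost, and 9 (20%) were lower at an adjusted p below 0.05 (edgeR), against 6.01% and 24.0% of promoter sites, so that the list stood no higher than its background. Values ran from -1.36 to 0.42, with a median log2 fold change of -0.31. At Kpna3, an importin alpha gene, the site at 1203 bp (chr14:62057378-62057784, intronic) had 79.4 and 81.6 normalised reads without and 35.2 and 26.5 with HOT (-1.36, SE 0.23, adjusted p = 1.54e-05, edgeR). At Ipo7, an importin gene, the site at -13 bp (chr7:117161819-117162033) had 30.9 and 27.9 without and 11.7 and 14.8 with HOT (-1.16, SE 0.37, adjusted p = 0.0198, edgeR). Both sites had separate groups. The Kpna3 call stood in the 11 alternative fits, while the Ipo7 call ended without -HOT R1, -HOT R3 or +HOT R1, with an adjusted p of up to 0.215 (edgeR). The remaining 7 lower sites were at Kpna6, Ipo4, Xpo1, Nutf2, Ddx19a and, with 2 sites, Rcc1, the exchange factor of Ran, and their values lay between -0.99 and -0.51.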

How the data were processed

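CTCF ChIP-seq was measured in 4 libraries, 2 of -HOT and 2 of +HOT cells. The 4 input samples were not analysed here. Per the study's methods, the authors trimmed reads with Trim_Galore, aligned them to mm9 with BWA, removed duplicates and blacklisted regions and called narrow peaks with MACS2. The deposited tables give raw counts of reads per site, and the sources used here do not give the counting tool, versions or pooling. Another 4 columns of values that the authors normalised per library, and their fold changes and p-values between the treatments, were not used. Columns are numbered R1 and R3 and sample titles otherwise, so columns were matched to groups only.

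Sites were tested with edgeR 4.0.16 in R 4.3.3 (TMM, filterByExpr with a minimum count of 10, robust quasi-likelihood fit) with Benjamini-Hochberg adjustment over 99560 of 104008 sites. The common dispersion had a square root of 0.0476, and within each group the counts differed beyond sampling noise. On simulated counts for these 99560 sites, 43% of the sites changed 2-fold and 84% of those changed 4-fold were recovered at an adjusted p below 0.05 (edgeR). Unlike in the calls, no fold threshold was set there, and every site was drawn with the common dispersion. DESeq2 1.42.0, other scalings, filters and windows and left-out libraries were tried as alternatives. CTCF matches were scored with a 20-position matrix built from the 5000 strongest sites (seed CC, 3 free bases, AG, 2 free, GGC, rebuilt 3 times), at a threshold passed by 5% of shuffled and 86.3% of real sites. Starts and features came from GENCODE vM1 and sequence from NCBIM37. Coordinates count from 1, after 1 was added to the starts of the tables.

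The members and lists were chosen with earlier results of these data known. Sites named are those at Nup62, all called sites, up to 12 with the smallest p below the threshold and no overlap, the 6 strongest, the strongest of each module and the called transport factor sites.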

Additional observations from a re-analysis of the deposited data

How the results depend on the processing

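The 6 called nucleoporin gene sites of the edgeR fit stood against 1 of 28 with an adjusted p in DESeq2, which leaves weak sites without one, 3 of 38 with a mean of at least 20 counts, and 14 without the fold threshold. Without 1 library at a time the count was 4 to 5, with 1 of the 5 called sites gained without -HOT R1. The median log2 fold change of -0.26 was -0.41 with only protein-coding starts and -0.45 with only the outermost start of a gene, both chosen after seeing the data, and -0.39 to -0.27 without 1 library at a time. The difference in the share of site reads, -0.00941 percentage points, was -0.00702 without Nup62, reversed to 0.000784 with promoter reads as the denominator and without Nup62 (chosen after seeing the data), and was between -0.00982 and -0.00899 without 1 library at a time. The transport factor count of 2 was 1 to 3 without 1 library at a time. For the Nup62 site the log2 fold change without 1 library was -1.98 to -1.85. With a replicate block on the column numbers 6 sites were called and the median was -0.25, and no named site changed its call. The deviations of same-numbered columns correlated at r = 0.0263 over sites. Sampling noise at sites with few reads also lowers such a correlation, so that it cannot settle whether these libraries are paired. The numbers are used here only to name the libraries. Other scalings, no count filter, other windows and nearest-gene assignment gave 5 to 7 called sites. Few reads limit the calls: the lost sites other than Nup62 rest on 10 to 34 raw reads per library.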

Other observations

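Between 3000 and 5000 bp from a nucleoporin gene start lay a further 30 sites, with a median log2 fold change of -0.30 and 23 values below 0. The Nup153 site at 3269 bp was the only called one among them. The strongest of these, at Rae1 (at -3648 bp, a second strong site upstream of the gene), had 187 and 203 normalised reads without and 167 and 179 with HOT, a log2 fold change of -0.17. At Tmem48, an intronic site at 4457 bp had 135 and 127 without and 135 and 145 with HOT, a log2 fold change of 0.09. Its groups do not overlap but nearly touch, as -HOT R1 and +HOT R1 are equal after rounding. The highest value was that of the site at -3123 bp from a Nup54 start, with 26.5 and 15.9 without and 35.8 and 39.8 with HOT (log2 fold change 0.78, adjusted p = 0.0824, edgeR), and it is the site nearest to that gene of the central channel.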
